A study of Homo sapiens with 6 samples.

Results

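The mitochondrial genome of human cells carries 37 genes, and all of them were rows of the deposited count table, found as the gene names that start with MT-. They are 37 of 60648 rows: 13 mRNAs, 2 rRNAs and 22 tRNAs. The study worked with A549 cells, derived from a human non-small cell lung carcinoma, that carry an shRNA labelled shCtrl or shM16. The labels call the shCtrl cells WT and the shM16 cells METTL16 knockdown, with no further change of genotype given. Whether each is a clone or a pool of transduced cells is not given in the sources used here. METTL16 is an RNA methyltransferase known for modifying U6 snRNA and the MAT2A mRNA. Cells were kept for 2 h in amino acid starvation medium or in complete medium and then received cycloheximide for 5 min. The 3 conditions were the starved control, the starved knockdown and the knockdown in complete medium, called the fed knockdown below. A fed control was not analysed here. Each condition gave 1 library of input RNA, fragmented chemically and cut from a gel at 40 to 60 nt, and 1 library of RNase I footprints cut at 30 nt. No library has a replicate, so differences between libraries have no replicate check and are given without p-values.

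Mitochondrial DNA is transcribed from both strands into long precursors, from which tRNAs are cut out so that the mRNAs and rRNAs between them are released. The mRNAs are translated inside the organelle by mitochondrial ribosomes, which are built on the mitochondrial rRNAs and on proteins imported from the cytosol. All the encoded proteins are subunits of oxidative phosphorylation: of complex I (NADH dehydrogenase), complex III (cytochrome bc1), complex IV (cytochrome c oxidase) and complex V (ATP synthase). Cycloheximide stalls cytosolic ribosomes and is not an inhibitor of mitochondrial ribosomes. A read of the footprint library is an RNase-resistant fragment of the selected size, and counts alone cannot tell a cytosolic from a mitochondrial ribosome, or a ribosome from another particle, as its source.

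Total counts were 465303 to 775676 in the input libraries and 518955 to 781831 in the footprint libraries, and the starved knockdown had the smallest library of each assay. METTL16 had 44 input reads in the starved control, then 9 and 19 for knockdown cells, starved and fed, or 77.3, 19.2 and 26.1 CPM (here each count over the TMM-adjusted library total). Its footprint reads numbered 60, 3 and 7 in the same order, so the knockdown libraries were low in both assays. Of 9 epithelial markers of this line, 8 had reads in every input library, summing to 5285 to 6084 CPM. The 6 fibroblast markers summed to 8.25 to 14.1 CPM in input RNA and 18.2 to 36.6 CPM in footprints, and 8 of 8 leukocyte and erythroid markers were at 0 in every library. The 95% intervals below treat reads as independent and cover counting error only, not variation between replicates. PCR copies of a molecule cannot be recognised without molecular identifiers, so the intervals may be too narrow even for counting error.

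Mitochondrial mRNAs were a large class in every library, and largest in the knockdown in complete medium. They made up 8.65% of input counts in the starved control, then 10.3% and 13.2% for knockdown cells, starved and fed. In the footprint libraries the shares were 4.67% (exact Clopper-Pearson interval 4.63 to 4.72), 5.26% (5.20 to 5.32) and 9.95% (9.88 to 10.0). The share was thus smaller among footprints than in the input RNA of the same cells, and the gap was narrowest in complete medium.

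The mitochondrial rRNAs followed another order. Their share of input counts was 0.673% in the starved control, then 1.36% and 0.884% for knockdown cells, starved and fed. Among footprints it was 0.0968%, 0.198% and 0.343%. The starved knockdown therefore held the highest rRNA share of input RNA but the middle share of footprints. Within all mitochondrial reads, rRNA took 7.20% of the input of the starved control, 11.6% (11.3 to 11.8) of the starved knockdown and 6.24% of the knockdown in complete medium. The 47 rows of nuclear rRNA held 9 to 26 reads per library in all. The table therefore carries almost no cytosolic rRNA to set beside the mitochondrial rRNAs. How far the mitochondrial rRNA counts follow levels in the cells, or steps that remove rRNA, was not tested.

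**Figure D1:**
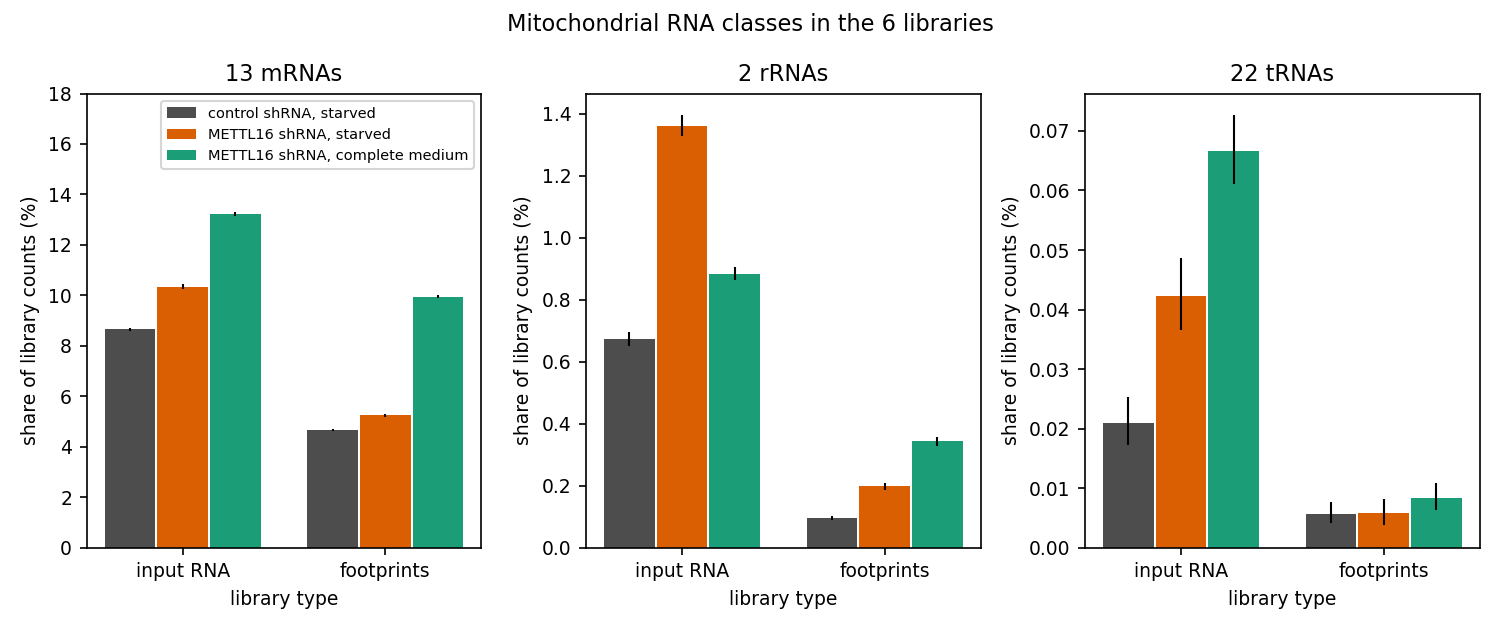
Share of each library's counts (percent, vertical axes starting at 0, a separate scale per panel) taken by the 13 mitochondrial mRNAs, the 2 rRNAs and the 22 tRNAs, in input RNA and footprints of the 3 conditions, with exact 95% counting intervals. The mRNA share is highest in the knockdown in complete medium in both assays, whereas the rRNA share of input RNA is highest in the starved knockdown.

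The tRNAs, 59 to 75 nt long in the table, were nearly absent from these size-selected libraries. How well such short RNAs were recovered was not tested, so their counts are not read as levels in the cells. Their summed reads were 113, 197 and 517 in input RNA, in the order starved control, starved and fed knockdown, and 45, 30 and 60 in footprints. Of the 22, 7 had no read in any library (MT-TQ, MT-TA, MT-TN, MT-TS1, MT-TD, MT-TK and MT-TE), and 9 had reads in every input library. Of the 8 tRNAs of the light-strand transcript 5 were without reads, against 2 of the 14 of the heavy-strand transcript. The 3 that reached a mean of 30 input reads were MT-TM, MT-TT and MT-TP, the tRNAs for methionine, threonine and proline, and together they held 62.7 to 75.1% of the tRNA reads of an input library. No tRNA reached that mean among footprints.

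The mRNAs themselves differed widely in level. Per length, in TPM (each library's counts divided by length and rescaled), MT-CO3, the third catalytic-core subunit of complex IV, ranked first in every library, at 27117, 25259 and 37661 TPM in input RNA. MT-CO2, the complex IV subunit that takes electrons from cytochrome c, had 22524, 16906 and 27172 TPM. MT-ND4 and MT-ND4L, membrane subunits of complex I that share a bicistronic mRNA, stood close together at 21626 and 20364 TPM in the starved control. MT-CYB, the only mitochondrial subunit of complex III, ranked 5 in every input library, at 13096, 13854 and 20291 TPM.

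At the lower end were MT-ND5 (2105, 2278 and 3165 TPM in input RNA), a proton-pumping subunit of complex I, and MT-CO1, the catalytic subunit of complex IV (1757, 1471 and 2597 TPM). MT-CO1 ranked 12 of 13 and MT-ND5 ranked 11 in all 6 libraries. The table also has 47 rows of nuclear copies of MT-CO1 and 38 of MT-ND5. How reads that fit several places were assigned is not given in the sources used here, and its part in these ranks was not tested. MT-ND6, the complex I subunit that is the only mRNA of the light strand, was last throughout, with 13, 11 and 27 input reads and 8, 5 and 14 footprint reads. It is the 1 mRNA below the count minimum used for the comparisons, a mean of 30 counts over the 3 libraries of an assay, so counts of measured mRNAs below refer to the other 12. Both rRNAs passed this minimum in both assays.

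**Figure D2:**
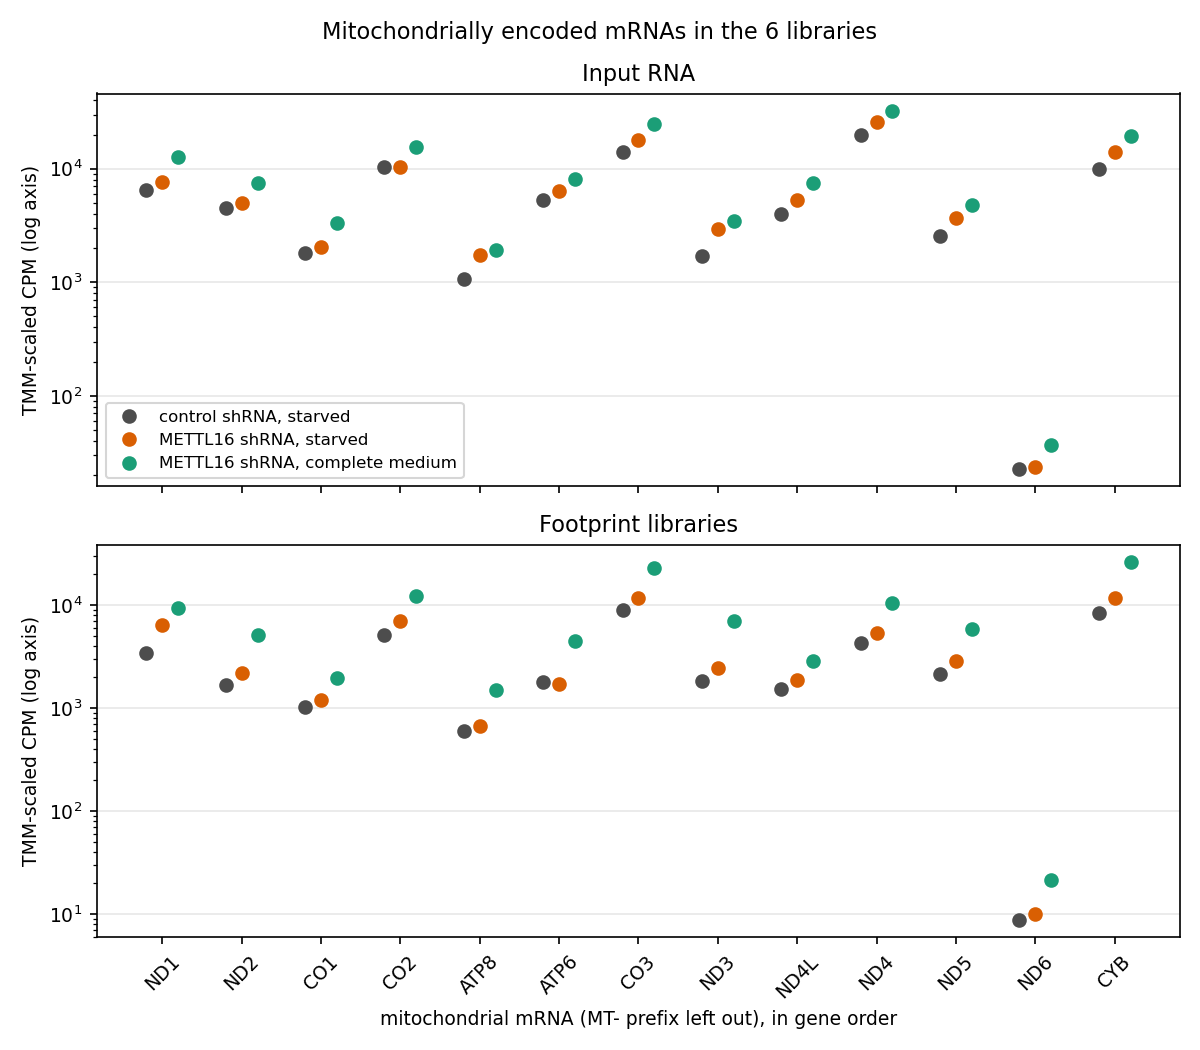
TMM-scaled CPM (log axis) of each of the 13 mitochondrial mRNAs in the input RNA and footprint libraries of the 3 conditions, 1 point per library, in gene order. The knockdown in complete medium has the highest value for all 13 mRNAs in both assays, and MT-ND6 lies far below the other 12.

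The make-up of the mRNA reads, which needs no scaling between libraries, differed between input and footprints. MT-ND4 took the largest share of input mRNA reads, 24.3% in the starved control and 25.2% and 22.7% in the knockdown without and with amino acids. It took only 10.5%, 9.63% and 9.50% of footprint mRNA reads. MT-CYB went the other way, from 12.2%, 13.8% and 13.7% of input reads to 20.5%, 21.3% and 23.7% of footprint reads.

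MT-ND3, a small complex I subunit, had a footprint share 2.13, 1.57 and 2.61 times its input share in the order starved control, starved and fed knockdown. For MT-ND5 the same quotient was 1.70, 1.44 and 1.58, and for MT-CO3 it was 1.28, 1.24 and 1.20. MT-ATP6, the proton-channel subunit of complex V, lay below 1 in each condition, at 0.676, 0.495 and 0.707. MT-ND1 (1.04, 1.58 and 0.947), MT-ATP8 (1.13, 0.716 and 0.987) and MT-CO1 (1.14, 1.11 and 0.760) lay on both sides of 1. MT-ND4L was below 1 as well, at 0.759, 0.662 and 0.490. MT-ND4, which shares a transcript with MT-ND4L, was lower still, at 0.433, 0.382 and 0.419.

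Single shares set the starved knockdown apart in its footprints. There MT-ND1, a complex I subunit near the quinone site, held 11.6% of mRNA footprints (11.3 to 12.0), against 8.34% in the starved control and 8.54% in the knockdown in complete medium. MT-ATP6 held 3.08% (2.88 to 3.29), against 4.37% and 4.09%. MT-ND3 footprints stood apart in complete medium instead, at 6.41% against 4.47% in both starved conditions.

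**Figure D3:**
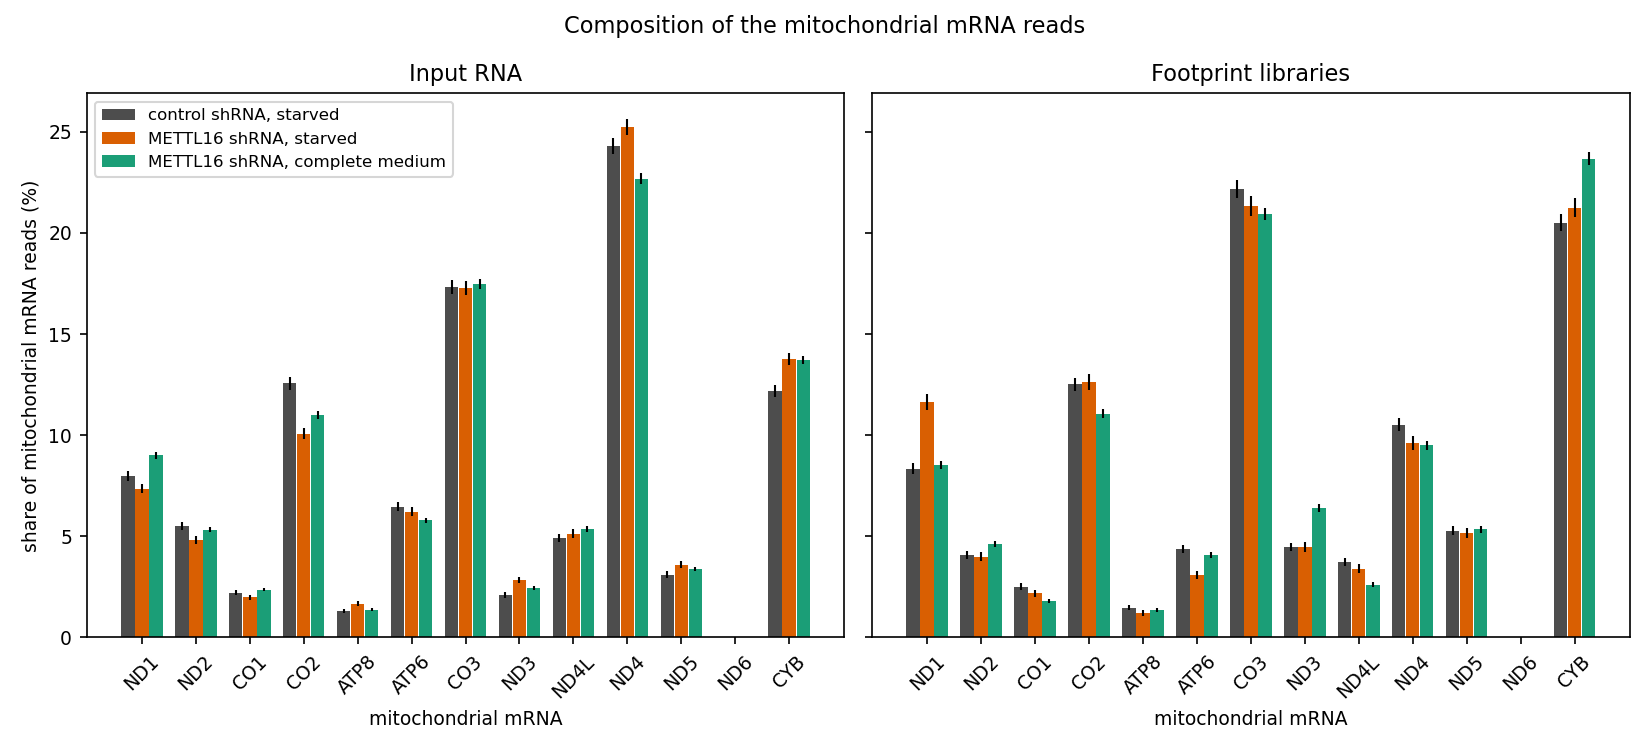
Share of each mRNA among the mitochondrial mRNA reads (percent, axis from 0) of input RNA and of footprints in the 3 conditions, with exact 95% counting intervals. MT-ND4 leads the input panel at 22.7 to 25.2% and takes 9.50 to 10.5% of footprints, while MT-CYB takes 12.2 to 13.8% of input reads and 20.5 to 23.7% of footprints.

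The pairs of overlapping reading frames gave further detail per length. MT-ATP8, a small complex V subunit, had 0.661, 0.889 and 0.783 times the input TPM of MT-ATP6, and 1.10, 1.28 and 1.09 times its footprint TPM. MT-ND4L had 0.942, 0.945 and 1.09 times the input TPM of MT-ND4, and 1.65, 1.64 and 1.28 times its footprint TPM. In both pairs the upstream frame thus had relatively more footprints than the downstream frame, with the narrowest gap for MT-ND4L in complete medium. Reads in the stretch shared by MT-ATP8 and MT-ATP6 (46 nt) or by MT-ND4L and MT-ND4 (7 nt) belong to both genes, and how they were counted is not given in the sources used here. Reads counted to nuclear copies are left out of these quotients. In footprints they amounted to 47.3%, 48.7% and 29.1% of MT-ATP6 reads (starved control, starved and fed knockdown) and at most 8.31% for MT-ATP8. Whether MT-ATP8 exceeds MT-ATP6 in footprint TPM therefore depends on where such reads were assigned.

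A footprint-to-input level places each mRNA among all genes: it is the log2 ratio of footprints to input RNA of a condition minus the median of that ratio over the 2866 genes measured in both assays. A gene counts as above or below when its level lies 2-fold or more from that median and the interval does not include 0. The mitochondrial mRNAs had a median level of -0.87 for starved control cells, -0.59 for the starved knockdown and -0.28 for the fed knockdown. In the starved control 4 of 12 measured mRNAs were below (MT-ND4L, MT-ND2, MT-ATP6 and MT-ND4) and 0 were above, where 13.7% of all genes were below and 9.98% above. In the starved knockdown 5 were below, the same 4 and MT-ATP8, and 0 above, beside 14% and 10.7% of all genes. In complete medium 2 were below, MT-ND4L and MT-ND4, and 1 above, MT-ND3, beside 11.5% and 6.87% of all genes.

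MT-ND4 had the lowest level in each condition, at -2.19, -2.21 and -1.49 in the same order. In the starved control 1.99% of the 2866 genes lay lower. MT-ND3 was at the other end in the starved control (0.11, interval -0.01 to 0.22) and in the fed knockdown (1.15, 1.08 to 1.22), where 95.9% of genes lay lower. In the starved knockdown MT-ND1 (-0.16), MT-ND3 (-0.17) and MT-CYB (-0.19) were highest, and their intervals overlapped.

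Between the extremes, MT-CYB stood at -0.23, -0.19 and 0.55 and MT-ND5 at -0.22, -0.30 and 0.42 in the order starved control, starved and fed knockdown. These 2 did not differ beyond their intervals in the starved control. MT-CO1 kept much the same level, -0.79, -0.67 and -0.63. The range from the lowest to the highest mRNA was 4.93-fold, 4.14-fold and 6.24-fold, so members transcribed from the same precursor differed several-fold in footprints per input read.

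The rRNAs lay lower than nearly all genes in the starved cells. MT-RNR1, the rRNA of the small mitochondrial ribosomal subunit, was at -2.63, -3.02 and -0.97 in the order starved control, starved and fed knockdown. MT-RNR2, the rRNA of the large subunit, was at -3.03, -2.44 and -1.32. In complete medium both therefore came more than 2-fold closer to the median gene than in either starved condition. For comparison, 46 measured nuclear subunits of oxidative phosphorylation had median levels of 0.59, 0.58 and 0.62 in the same order, with values from -1.45 to 1.99.

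**Figure D4:**
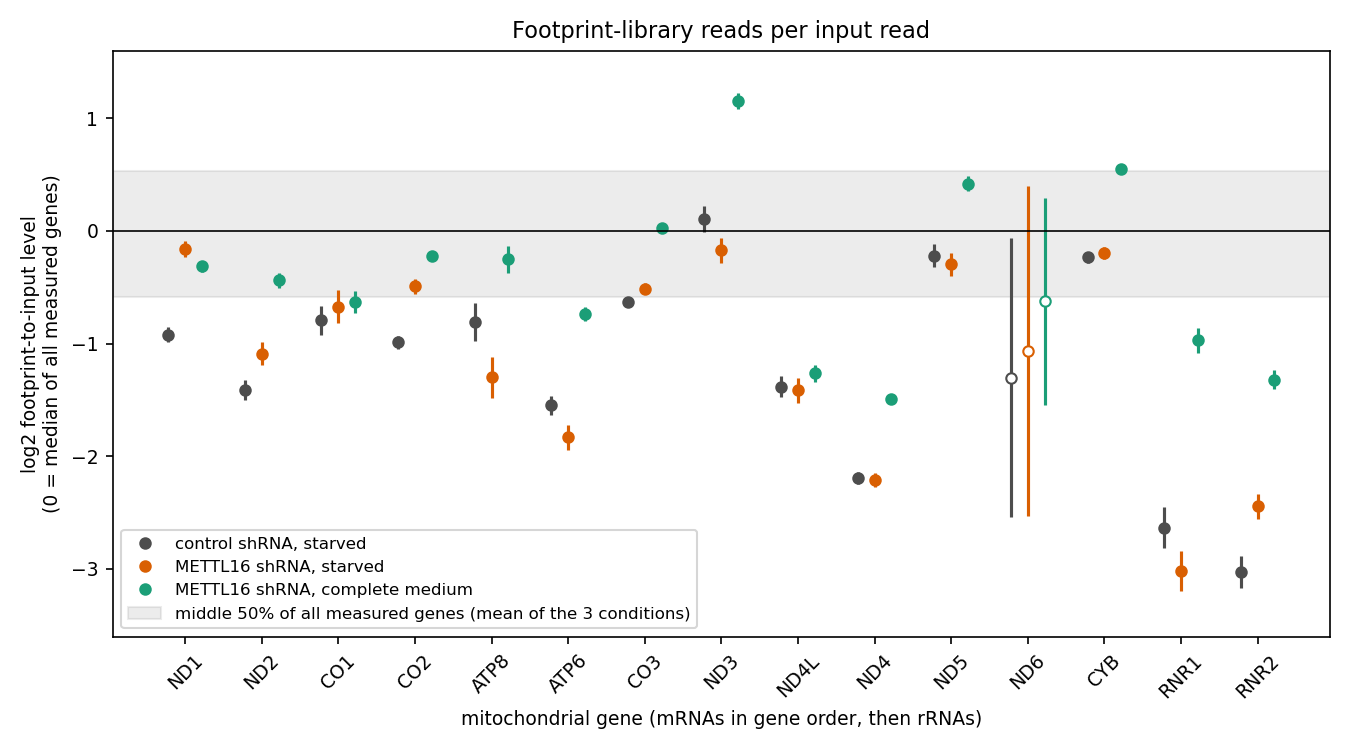
Log2 footprint-to-input level of the mitochondrial mRNAs (in gene order) and rRNAs relative to the median of all 2866 measured genes (line at 0, grey band the middle 50% of genes), with 95% counting intervals, for the 3 conditions; MT-ND6, open symbols, is below the count minimum. MT-ND4 lies lowest of the 12 measured mRNAs in each condition, and MT-ND3 in complete medium is the only mRNA more than 2-fold above the median.

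The first comparison set the starved knockdown against the starved control, which asks what the METTL16 knockdown changes under starvation. Values are log2 ratios of the TMM-scaled libraries, and a gene is called at a difference of 2-fold or more whose interval does not include 0. The input RNA of the mitochondrial mRNAs was slightly higher in the knockdown: 12 of 12 measured mRNAs had a log2 ratio above 0, with a median of 0.36, against -0.01 over all 3876 genes. None was called, where 4.31% of all genes were called higher and 5.01% lower. A different number of mitochondria per cell and a different amount of RNA per mitochondrion cannot be told apart in these bulk samples. Footprints were above 0 for 11 of 12, with a median of 0.40 against -0.07 over 3431 genes, and again none was called, beside 3.35% higher and 3.96% lower among all genes. The footprint-to-input ratio had a median of -0.04 against -0.03, with none called beside 4.54% and 5.97% of genes. Scaled by library totals the median of all genes moved to -0.34 for footprints and -0.23 for the ratio, and 11 of 12 input ratios and 9 of 12 footprint ratios were above 0.

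Within complex I the members did not move alike. MT-ND1 had 6522 CPM in input RNA of the starved control, 7561 in that of the starved knockdown, and 3383 and 6420 CPM in footprints. Its footprints thus stood almost 2-fold higher in the knockdown, with a log2 ratio of 0.92 (0.85 to 1.00) beside 0.21 in input RNA and 0.71 (0.61 to 0.81) in the footprint-to-input ratio. With TMM factors made from the measured genes only, MT-ND1 footprints were called higher. With the input of the knockdown in complete medium in place of the starved knockdown's, the MT-ND1 ratio was -0.04, against -0.18 over all genes. That swap carries the input difference between the media into the ratio, so it does not test either input library.

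MT-ND3 went from 1713 to 2928 CPM in input RNA and from 1813 to 2464 CPM in footprints. Its log2 ratio was 0.77 (0.65 to 0.89) in input RNA, the highest of the mRNAs, 0.44 in footprints and -0.33 in the ratio. MT-ND5, with 2540 and 3696 CPM in input RNA, was at 0.54, 0.41 and -0.13. MT-ND2, MT-ND4 and MT-ND4L had input ratios of 0.14, 0.39 and 0.39 and footprint ratios of 0.41, 0.32 and 0.31. Summed over the 7 complex I mRNAs, input RNA was at 0.36 and footprints at 0.51.

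MT-CYB had 9950 and 14157 CPM in input RNA and 8318 and 11723 CPM in footprints, in the order control and knockdown. The 2 measures were higher by nearly the same factor, 0.51 and 0.50 on the log2 scale, which left the ratio at -0.01 (-0.08 to 0.06). In complex IV, MT-CO2 had nearly equal input RNA (0.01, -0.04 to 0.07) and higher footprints (0.46), a ratio of 0.44 (0.36 to 0.53). MT-CO1 and MT-CO3 had ratios of 0.07 and 0.06. With the input of the fed knockdown in place of the starved knockdown's, all 12 measured mRNAs had a ratio below 0. The median of all genes was then -0.18, with MT-CO2 at -0.14, MT-CO1 at -0.65 and MT-CO3 at -0.41. That swap adds the input difference between the media to each ratio, so it does not test either input library.

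The complex V mRNAs had lower footprint-to-input ratios. MT-ATP8 had 1061 CPM in the input RNA of the control and 1724 in the knockdown, but 594 and 663 CPM in footprints. MT-ATP6 had 5282 and 6383 CPM in input RNA, and 1773 and 1698 CPM in footprints. Both mRNAs had more input RNA in the knockdown (0.70 and 0.27) without a matching gain of footprints (0.16 and -0.06). Their ratios were -0.54 (-0.79 to -0.29) and -0.34 (-0.48 to -0.19), not past the 2-fold threshold.

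The rRNAs differed more than the mRNAs. MT-RNR1 had 2043 CPM in input RNA of starved control cells and 4799 in that of the starved knockdown, and MT-RNR2 had 4310 and 8717 CPM. Both were called higher, with log2 ratios of 1.23 (1.13 to 1.34) and 1.02 (0.94 to 1.09). The call of MT-RNR2 rests on the scaling, since it was 0.94 with library totals.

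In footprints MT-RNR2 had 517 and 1516 CPM and was called higher, at 1.55 (1.38 to 1.72). MT-RNR1 had 323 and 560 CPM, at 0.79, and was not called. Footprints of MT-RNR1 per length were 1.02 times those of MT-RNR2 in the control, 0.604 times in the starved knockdown and 1.07 times in complete medium. The balance of the rRNAs in footprints therefore differed in the starved knockdown, while in input RNA the same quotient was 0.774, 0.900 and 0.840.

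Of the 3 tRNAs with a mean of 30 input reads, MT-TM (20 and 55 reads) and MT-TT (25 and 43 reads) were called higher in the input RNA of the knockdown, and MT-TP (33 and 50 reads) was not. The log2 ratios were 1.72 (0.98 to 2.56), 1.05 (0.32 to 1.84) and 0.87 (0.22 to 1.56). With library totals MT-TT was at 0.98. MT-TM had no footprint read in any library, which allows up to 3.33 CPM in the starved control, then 6.06 and 4.63 for knockdown cells, starved and fed (3 counts each). Summed input reads of the heavy-strand tRNAs were 76 and 142 in control and knockdown, at 1.18, and of the light-strand tRNAs, mostly MT-TP, 37 and 55, at 0.85. All tRNAs together were at 1.08 (0.74 to 1.43) in input RNA and 0.29 (-0.44 to 0.98) in footprints.

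The second comparison set the starved knockdown against the knockdown in complete medium, which asks what amino acid starvation changes in knockdown cells. The starved knockdown libraries serve both comparisons, so the values of the comparisons are not independent. Input RNA of the mitochondrial mRNAs was lower in the starved cells: 12 of 12 log2 ratios were below 0, with a median of -0.46 against -0.08 over all genes. None was called, beside 2.12% of all genes called higher and 5.52% lower. Footprints were lower still, with 12 of 12 below 0 and a median of -1.002 against -0.03. MT-ND2, MT-ATP8, MT-ATP6, MT-ND3, MT-ND5 and MT-CYB, 6 of 12, were called lower and 0 higher, where 7.34% of all genes were called lower and 4.78% higher. The footprint-to-input ratio had a median of -0.63 against 0.11, with 2 of 12 called lower, MT-ATP6 and MT-ND3, and 0 higher, beside 8.72% and 8.13% of all genes.

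These ratios rest on 1 input and 1 footprint library per condition. With the input of the starved control in place of the starved knockdown's, the median ratio was -0.19, against 0.09 over all genes. Of the 12 mRNAs 0 were then called lower. That swap carries the input difference between the shRNA lines into the ratio, so it does not test either input library. The footprint values do not use an input library.

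**Figure D5:**
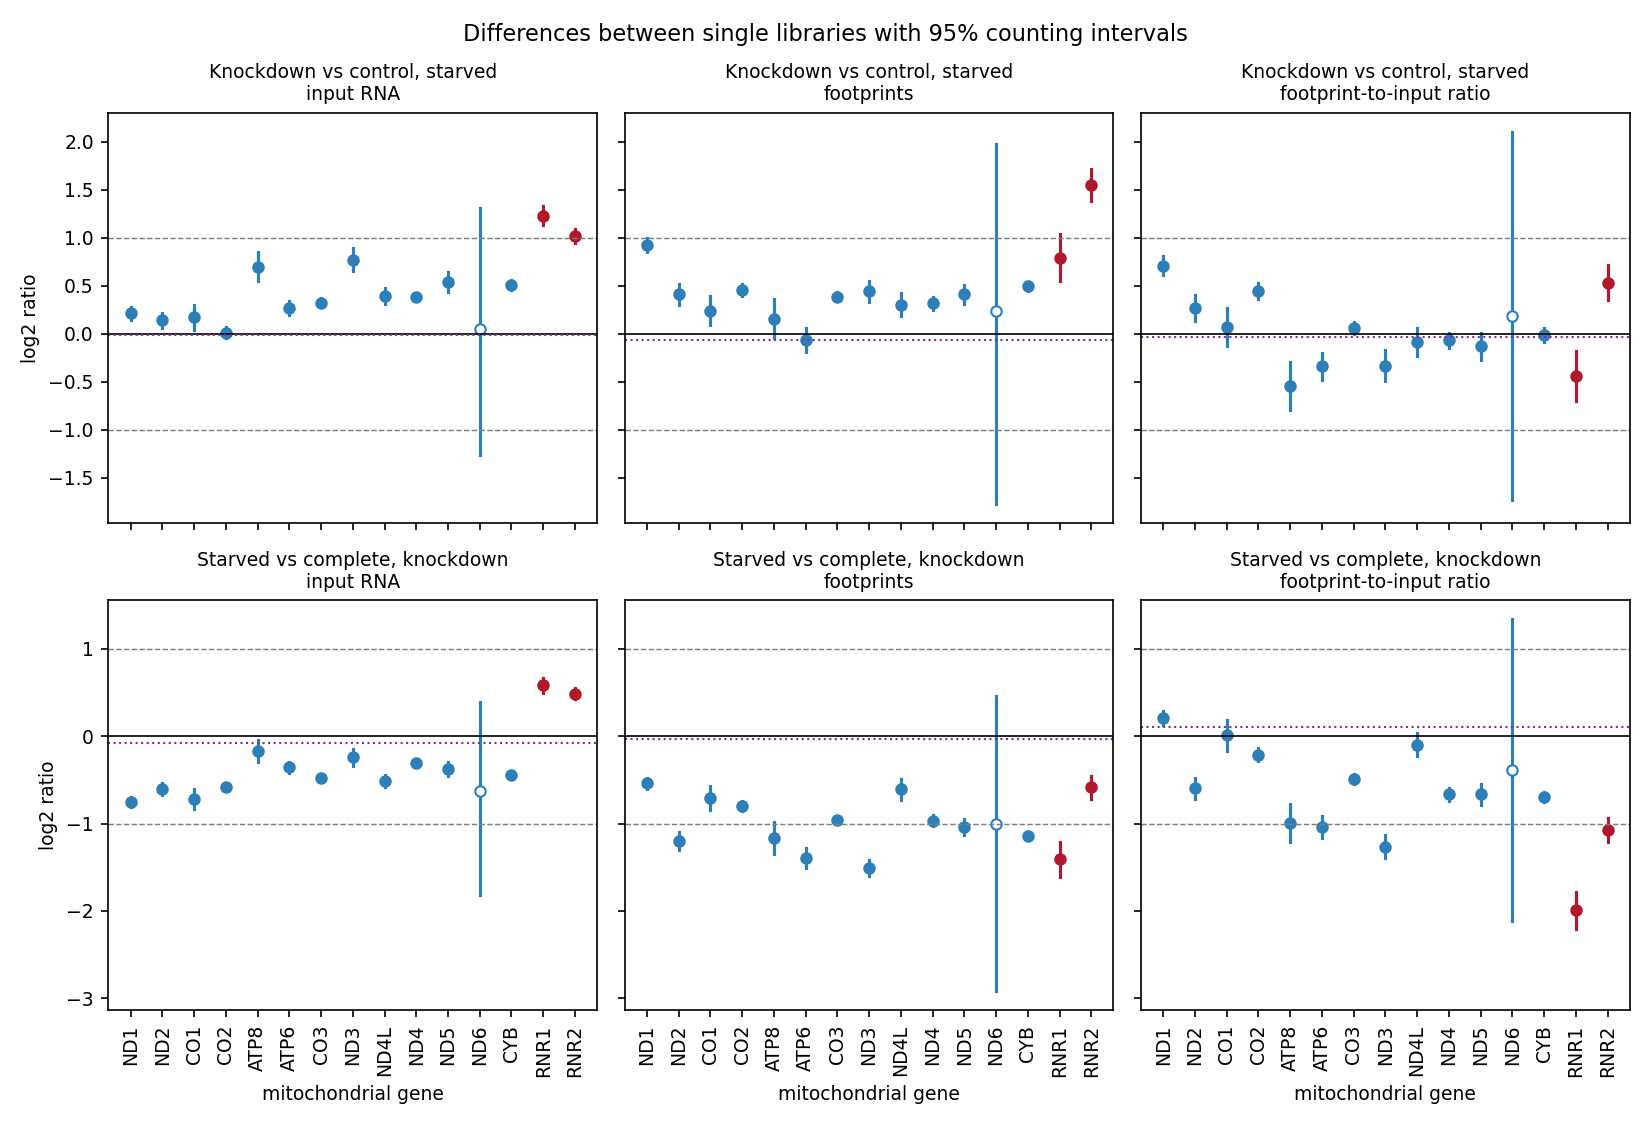
Log2 ratios (vertical axes; the rows of panels have different ranges) of the mitochondrial mRNAs (blue) and rRNAs (red) for both comparisons in input RNA, footprints and footprint-to-input ratio, with 95% counting intervals; dashed lines mark 2-fold, the dotted line the median of all measured genes, and the open symbol MT-ND6, below the count minimum. Footprints of starved against complete medium have 6 of 12 measured mRNAs called lower, whereas no mRNA is called in the panels of knockdown against control.

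MT-ND3 had the largest differences of the mRNAs in footprints and in the ratio. Its footprints were 2464 CPM in the starved knockdown and 7003 in complete medium, and its input RNA 2928 and 3457 CPM. Footprints were 2.84-fold lower in the starved cells, with a log2 ratio of -1.51 (-1.60 to -1.42), and the footprint-to-input ratio 2.41-fold lower, at -1.27 (-1.40 to -1.14). Footprints of the starved control, at 1813 CPM, were lower than those of both knockdown libraries.

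Both complex V mRNAs were called lower in footprints. MT-ATP6 footprints were 1698 CPM in starved and 4467 in complete medium, 2.63-fold lower, at -1.39 (-1.51 to -1.28), and MT-ATP8 footprints were 663 and 1486 CPM, at -1.16 (-1.35 to -0.98). The input RNA of both differed little, at -0.35 and -0.17. Their ratios were -1.04 (-1.17 to -0.91) and -0.99 (-1.21 to -0.77), on either side of the 2-fold threshold. DESeq2 size factors, library totals and TMM factors from other gene sets each put MT-ATP8 past it, so that 3 of 12 were called lower. When reads of nuclear copies were added to each gene, the ratio of MT-ATP6 was -0.74, not called, and that of MT-ATP8 -1.02, called.

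MT-CYB had 11723 and 25878 CPM in footprints, the largest of all mRNAs in complete medium, and was called lower at -1.14 (-1.19 to -1.10). MT-ND2 footprints were 2205 and 5057 CPM, at -1.20. MT-ND5 footprints were 2850 and 5847 CPM, at -1.04 (-1.13 to -0.95). The call of MT-ND5 is near the threshold and was lost with library totals (-0.97) and with TMM factors from measured genes (-0.99).

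The remaining mRNAs were lower in footprints without a call. MT-ND4 (5310 and 10380 CPM) and MT-CO3 (11768 and 22891 CPM) were just short of 2-fold, at -0.97 and -0.96. MT-CO2 was at -0.80, MT-CO1 at -0.71 and MT-ND4L at -0.61. MT-ND1 was nearest 0, with 6420 and 9330 CPM, or -0.54.

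The input RNA of MT-ND1 (-0.75) and MT-CO1 (-0.72) was the lowest of the measured mRNAs relative to complete medium, and their footprint-to-input ratios were 0.21 (0.13 to 0.29) and 0.01 (-0.16 to 0.19). MT-ND4L was near 0 too, at -0.10, and was at 0.30 with the input of the starved control in place of the starved knockdown's. The latter value carries the input difference between the shRNA lines. All 9 other measured mRNAs had a ratio below -0.20. Summed by complex, footprints were at -0.94 for complex I, -1.14 for complex III, -0.89 for complex IV and -1.33 for complex V, and the ratios at -0.50, -0.69, -0.36 and -1.02.

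The rRNAs ran against the mRNAs in input RNA. MT-RNR1 had 4799 CPM in the starved knockdown and 3201 in complete medium, and MT-RNR2 had 8717 and 6225 CPM, log2 ratios of 0.58 (0.50 to 0.67) and 0.49 (0.42 to 0.55). In footprints the starved cells had less, 560 against 1489 CPM for MT-RNR1 and 1516 against 2276 CPM for MT-RNR2. MT-RNR1 was called lower in footprints (-1.41) and both were called lower in the ratio, at -1.99 (-2.20 to -1.78) and -1.07 (-1.21 to -0.93). With the input of the starved control in place of the starved knockdown's, these ratios were -0.76 and -0.06, not called. That swap adds the input difference between the shRNA lines to each ratio, so it does not test these calls.

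Among tRNAs, MT-TP was called lower in input RNA, with 50 reads in the starved knockdown and 172 in complete medium, at -1.14 (-1.63 to -0.69). MT-TM and MT-TT were at -0.09 and 0.13. The tRNAs of the heavy-strand transcript summed to 142 and 332 input reads, at -0.59, and those of the light-strand transcript to 55 and 185, at -1.11. Summed tRNA input was at -0.76 (-1.002 to -0.518), the same direction as the mRNAs and opposite to the rRNAs. MT-TP held nearly all the light-strand input reads, so that class value is close to its own. In footprints all tRNAs together, with 30 and 60 reads, were at -0.60 (-1.29 to 0.04). The heavy-strand tRNAs, with 17 and 46 footprint reads, were at -1.02 (-1.94 to -0.22), and the light-strand tRNAs, with 13 and 14, at 0.29 (-0.93 to 1.48).

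Nuclear genes of the same complexes were compared by the same measures. Of 75 nuclear subunits, 46 were measured in input RNA and 59 in footprints. In the knockdown against the control their medians were 0.02 in input RNA (1 called higher, 1 lower), -0.22 in footprints (0 higher, 1 lower) and -0.20 in the ratio (0 higher, 2 lower of 46). Over all genes the medians were -0.01, -0.07 and -0.03, and 4.31%, 3.35% and 4.54% of genes were called higher and 5.01%, 3.96% and 5.97% lower. Footprints were below 0 for 42 of the 59 nuclear subunits, while 11 of 12 mitochondrial mRNAs were above 0. Such counts depend on the scaling. With library totals 9 of 12 mRNAs were above 0, and the median of all genes was -0.34. In starved against complete medium the nuclear subunit medians were 0.07 (0 called), 0.05 (4 higher, 2 lower) and -0.03 (2 higher, 3 lower). Over all genes the medians were -0.08, -0.03 and 0.11, with 2.12%, 4.78% and 8.13% called higher and 5.52%, 7.34% and 8.72% lower. The mitochondrial mRNA medians of the second comparison, -0.46, -1.002 and -0.63, stand beside these.

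Set within a library, the balance of mitochondrial to nuclear subunit reads needs no scaling. Over the 4 complexes there were 11.7 mitochondrial reads per nuclear read in the input of the starved control, then 14.5 and 20.5 for knockdown cells, starved and fed. In footprints the numbers were 3.65 (3.57 to 3.73), 5.64 (5.47 to 5.82) and 11.6 (11.3 to 11.9). For complex I the footprint values were 3.97, 6.28 and 14.0, for complex III 6.20, 10.1 and 20.8, and for complex IV 5.31, 8.06 and 15.4. Complex V was lowest, at 0.740, 0.849 and 2.05, or 1.01, 1.16 and 2.55 with the reads of nuclear copies added. In each complex the order of the conditions was the same.

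Nuclear genes that serve mitochondrial gene expression were counted by list, and with so few measured members a count of 1 or 2 is not set apart from the shares of all genes called that are given above. Transcription and nucleoid factors had 3 of 13 members measured in input RNA and 2 in footprints, with 0 called in any measure of either comparison. TFAM, which packages and transcribes mitochondrial DNA, was at 0.69 in the input of knockdown against control and at -0.05 in footprints. RNA processing and stability factors had 8 of 20 measured in input RNA, 11 in footprints and 6 in the ratio.

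In knockdown against control none of those processing factors was called. In starved against complete medium 1 was called lower in footprints and in the ratio (beside 7.34% and 8.72% of all genes), LRPPRC, which binds and stabilises mitochondrial mRNAs. LRPPRC was at 0.56 in input RNA, -1.35 (-1.81 to -0.92) in footprints and -1.91 (-2.49 to -1.32) in the ratio. SLIRP, its partner protein, was at 0.27, -0.32 and -0.59, with intervals that include 0. The list medians in that comparison were 0.21, 0.01 and -0.11, beside -0.08, -0.03 and 0.11 over all genes.

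Translation factors had 4 of 14 measured in input RNA and 5 in footprints. OXA1L, which inserts newly made proteins into the inner membrane, was called lower in starved against complete medium, at -1.16 in footprints and -1.05 in the ratio. TUFM, the mitochondrial elongation factor Tu, was at -0.85 in footprints and -0.73 in input RNA, not called. No translation factor was called in knockdown against control.

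Proteins of the mitochondrial ribosome had 15 of 48 large-subunit and 13 of 31 small-subunit members measured in input RNA, and 30 and 20 in footprints. In knockdown against control their footprint medians were -0.24 and -0.52, with 2 of 30, MRPL33 and MRPL3, called lower (both -1.06) and 0 of 20 in the small subunit, beside 3.96% of all genes. In input RNA MRPL19 was called higher (1.16) and MRPS2 lower (-1.19), beside 4.31% and 5.01% of all genes. The ratio had 14 large-subunit and 13 small-subunit members measured. There MRPL19, MRPL3 and MRPS30 were called lower and MRPS2 higher, beside 5.97% and 4.54% of all genes.

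In starved against complete medium the footprint medians of the large and small subunits were 0.21 and -0.05. MRPL14 (1.05) and MRPS16 (1.12) were called higher and MRPS22 lower (-1.62) in footprints, where 4.78% and 7.34% of all genes were. In input RNA MRPL24 was called higher (1.01), beside 2.12% of all genes. MRPS30 (-1.21) and DAP3 (-1.19) were called lower in the ratio, beside 8.72% of all genes. The footprint median of all genes was -0.03 in that comparison, and that of the mitochondrial mRNAs -1.002.

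Reads from the nuclear genome can resemble mitochondrial ones. The table has 415 rows of nuclear copies of mitochondrial genes, which held 515 to 1808 reads per library. Most lay in MTATP6P1 (chromosome 1, 633696 to 634376, GRCh38), a copy of MT-ATP6, with 654, 583 and 1630 input reads and 703, 398 and 805 footprint reads. Copies of MT-ATP6 amounted to 22.1%, 19.6% and 27.8% of the reads of MT-ATP6 in input RNA and 47.3%, 48.7% and 29.1% in footprints. For the other measured mRNAs that have copies in the table, these were at most 8.31% of the gene's reads (MT-ATP8). How reads that fit several places were assigned is not given in the sources used here, and its part in the values of any member was not tested beyond adding the counted copies. With copies added, MT-ATP6 levels were -1.28, -1.52 and -0.72, against -1.55, -1.83 and -0.74.

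The positions of the members come from RefSeq's annotation of the mitochondrial chromosome (MT), which held 36 of the 37 genes with the same length as the count table. MT-RNR1 (ENSG00000211459.2) spans 648 to 1601 and MT-RNR2 (ENSG00000210082.2) 1671 to 3229. The mRNAs that the results turn on lie downstream, MT-ND1 (ENSG00000198888.2) at 3307 to 4262, MT-ATP8 (ENSG00000228253.1) at 8366 to 8572, MT-ATP6 (ENSG00000198899.2) at 8527 to 9207, MT-CO3 at 9207 to 9990, MT-ND3 (ENSG00000198840.2) at 10059 to 10404, MT-ND4L at 10470 to 10766, MT-ND4 at 10760 to 12137 and MT-CYB (ENSG00000198727.2) at 14747 to 15887. Mitochondrial genes have no introns, and MT-CO3 and MT-ND3, which are neighbours with only the glycine tRNA MT-TG between them, had footprint log2 ratios of -0.96 and -1.51 in starved against complete medium. MT-ND1, the first mRNA after the rRNAs, had the footprint log2 ratio nearest 0 of the mRNAs there and the highest footprint log2 ratio of the mRNAs in knockdown against control.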

How the data were processed

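Input RNA and RNase I footprints of 3 conditions gave 6 libraries, 1 per condition and assay. Per the submitters' processing notes the authors used featureCounts 2.0.1, STAR 2.7.5c, Bowtie2 2.2.5 and cutadapt 2.8 on GRCh38; strand and multi-mapping settings are not given in the sources used here. The deposited gene counts are whole numbers and the basis of all results. The deposited TPM values were not tested; those of the 13 mRNAs equal TPM recomputed from the counts within a relative difference of 5.27e-07. The authors' deposited ratio values (translation efficiency) were not used.

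Counts were scaled per assay by TMM over all genes (edgeR 4.0.16, R 4.3.3). Log2 ratios carry a pseudocount of 0.5. Intervals are exact conditional binomial 95% intervals, and delta-method Poisson intervals for footprint-to-input ratios (scipy 1.17.1, pandas 2.3.3 and numpy 2.4.6 in Python 3.11.15; plots with matplotlib 3.10.9). A gene is measured when it has a mean of 30 counts or more in each assay used. It is called at 2-fold or more with an interval that excludes 0. The calculation was tested on simulated data. A record broken over 3 lines of the table was left out. With 1 library per group no replicate test exists, and the calls compare libraries, not conditions.

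The named genes are all mitochondrial mRNAs and rRNAs, tRNAs with a mean of 30 counts, METTL16, nuclear copies with 100 or more counts in a library, and of each nuclear list the called members and at most the 2 highest and 2 lowest. Members and lists were chosen with earlier results of these data known. The alternatives were library totals, DESeq2 1.42.0 size factors, TMM over nuclear protein-coding genes, a pseudocount of 1, a count minimum of 10 or none, a call at 1.5-fold, another input library, another centre for levels and another denominator for shares. TMM over measured genes and adding nuclear copies to their gene were chosen after seeing the data. No mitochondrial sequence is printed, and 1 further nuclear list is not reported here.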

Additional observations from a re-analysis of the deposited data

How the results depend on the processing

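No paired analysis was possible because each condition has 1 library per assay. Under the alternatives run, no called value changed its sign, and 187 of the 222 values of the main results counted as unchanged. A median or share counted as unchanged when it stayed within the main interval. A number of called mRNAs did so when it was equal, or differed by at most 1.5-fold with neither number 0. Some values could not move under a given alternative, such as medians under the 1.5-fold call. With library totals the mRNA medians of knockdown against control were 0.28 in input RNA, 0.13 in footprints and -0.24 in the footprint-to-input ratio. The medians of all genes were then -0.08, -0.34 and -0.23. The input median of starved against complete medium was -0.36, against 0.03 over all genes. Set against the median of all genes, the mRNA medians of knockdown against control were 0.36, 0.47 and -0.01. A scaling factor shifts all genes of a library alike, so these differences cannot change with the scaling and do not test it. Values near 0 turned negative with library totals in knockdown against control. These were MT-CO2 in input RNA (-0.06) and MT-CO1 (-0.03) and MT-ATP8 (-0.11) in footprints. With TMM over measured genes the knockdown medians were 0.41 in input RNA and 0.48 in footprints, with 1 mRNA called higher in footprints, and the starvation input median was -0.37. At 1.5-fold, 2 mRNAs were called higher in input RNA, 1 in footprints and 1 in the ratio of knockdown against control, beside 11.3%, 8.6% and 9.35% of all genes. In starved against complete medium 3 were then called lower in input RNA, 11 in footprints and 7 in the ratio, beside 17.9%, 16% and 13.5%. With another input library in place of the starved knockdown's, the ratio medians were -0.48 for the knockdown and -0.19 for starvation, the latter with 0 called lower. The medians of all genes were then -0.18 and 0.09. These swaps carry the input difference between the media or the shRNA lines into the ratio, so they do not test either input library.

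A count minimum of 10 put the level medians at -0.73 in the starved control, and -0.42 and -0.13 in the starved and fed knockdown. Over protein-coding counts only, the mRNA shares in the same order were 9.48%, 11.8% and 14.6% of input and 5.58%, 7.55% and 13.1% of footprints. The rRNA shares were then 0.737%, 1.56% and 0.974% of input and 0.116%, 0.284% and 0.451% of footprints. The tRNA share was 0.0735% of input in complete medium, and 0.0083% and 0.0111% of footprints in the starved and fed knockdown. The same 12 mRNAs were measured at a count minimum of 10, so the level medians moved with the median gene they are set against. The shares rose because protein-coding counts are a smaller total. Depth limits MT-ND6, whose differences were not detectable at its counts, and the tRNAs, whose footprints have wide intervals.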
